A study of Taeniopygia guttata with 169 samples.

Results

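Males were compared with females in bone marrow of juvenile zebra finches, a songbird, at the labelled ages of day 35 and day 18. The comparison takes every library labelled with either age and with a known sex: 86 libraries, 46 of males and 40 of females, where the rest of the series analysed has 32 libraries of day 6 and 43 of day 90. The series asks how MeHg (methylmercury, a toxic mercury compound), given at 1.2 ppm in food, affects the blood-forming system, so both sexes held birds on MeHg food and birds on control food. At day 35 there were 11 males and 10 females on MeHg and 9 males and 10 females on control food. At day 18 there were 16 males and 9 females on MeHg and 10 males and 11 females on control food. All groups held birds of both labelled cohorts, and the libraries lay on 9 plates. The sexes were spread unevenly over the plates and over the labelled extraction batches. Extraction batch was not in the main fit. The birds are described as bred from lines of varied earlier exposure, which the labels do not give bird by bird. Totals of assigned reads were 4632900 to 14968673 per library. Whole marrow was sequenced, so a difference in the share of a cell type and a difference in RNA per cell cannot be told apart. Each library is counted as 1 bird, which the labels leave unstated, and the p-values rest on the spread from library to library alone, which may be partly technical. The table gives genes by identifier without symbol or position, and marker genes of marrow cell types could therefore not be checked.

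Sex in birds goes with the Z and W chromosomes: a male has a Z from each parent, a female a Z and a W. The Z holds many genes, and its dose is only partly balanced between the sexes, so that Z-linked genes are known to be expressed more in males, often by somewhat less than the ratio of gene copies. The W is small, holds mostly dosage-sensitive genes that have a partner on the Z, and is present in females alone. Bone marrow forms red cells, thrombocytes and white cells in birds as in mammals, and bird red cells and thrombocytes keep their nuclei. Which of the genes below lie on the Z or the W was not tested, since the identifiers could not be placed on a chromosome.

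In juvenile males 555 genes were higher than in females, most of them by less than 2-fold. In females 149 genes were higher than in males, most of them by a small margin, with 7 genes that were at least 4-fold higher in females. These counts are of 13724 genes tested with limma on log2(normalised count + 1), with age by treatment group, cohort and plate held constant, at a Benjamini-Hochberg adjusted p under 0.05. The genes higher in males were 4.04% of those tested, and the genes higher in females were 1.09%. The median difference over all genes tested was -0.02 on the log2 scale. Folds are of normalised count + 1, so for weakly read genes they are smaller than the ratio of counts.

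Among the 555 genes toward males, the male minus female difference had a median of 0.82 on the log2 scale, with the middle of the list between 0.64 and 0.96. As a ratio of the mean normalised count of males to that of females, the median was 1.79, with quartiles of 1.55 and 1.95. Most of the list thus sat in a narrow band: 413 genes differed by 0.5 to 1, and 262 of them by at least 0.75. Another 76 genes differed by 1 or more, 60 by 0.25 to 0.5 and 6 by less than 0.25. The 95% confidence interval of the difference lay wholly under 1, the value of a 2-fold difference, for 294 of the 555 genes. It included 1 for 253 genes and lay wholly above 1 for 8 genes. Among the called genes the median ratio lay between these quartiles from weak to strong expression. It was 1.88 at a mean normalised count under 20, 1.79 between 100 and 500, and 1.63 at 2500 or more. The median SE of all tested genes was 0.19, 0.07 and 0.06 at these levels. Between 20 and 100 the median ratio was 1.72 with a median SE of 0.13, and between 500 and 2500 it was 1.79 with 0.05. With a larger SE smaller differences are called less often, and the part of this in the ratios was not tested. From the lowest to the highest of the 5 levels, the share of tested genes called higher in males was 3.05%, 3.42%, 4.33%, 4.95% and 3.25%.

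The genes higher in females were spread differently. Their median difference was -0.21 on the log2 scale, and 91 of the 149 differed by less than 0.25. Another 29 differed by 0.25 to 0.5, 14 by 0.5 to 1 and 8 by 1 to 2, and then came the 7 genes beyond 4-fold. The size of the called differences fell with the level of the gene: the called genes had a median of -0.98 at a mean count under 20, against -0.15 at 500 to 2500, and the median SE of all tested genes was 0.19 and 0.05 at these levels. Of the 308 genes tested at 2500 or more, 0 were called higher in females with limma, where 1.09% of all genes tested were called so.

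**Figure D1:**
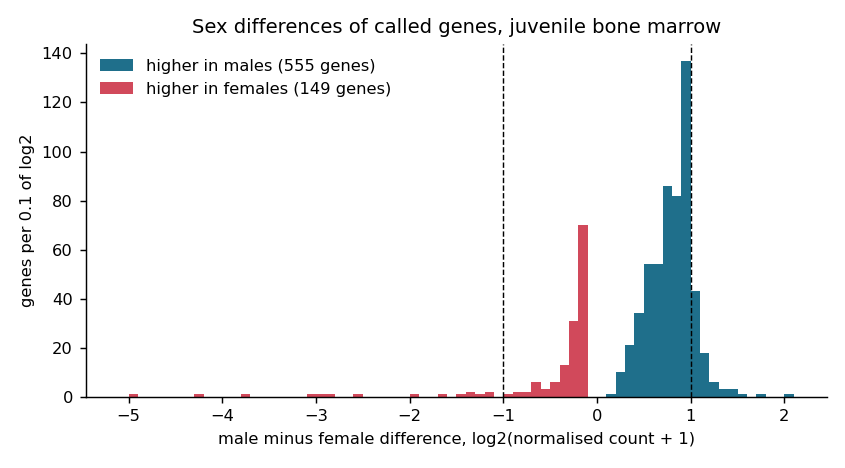
Number of genes per 0.1 of log2 against the male minus female difference on the log2(normalised count + 1) scale, for the 555 genes called higher in juvenile males (blue) and the 149 called higher in juvenile females (red); dashed lines mark a 2-fold difference. Genes higher in males form a peak just under the line at 1, and genes higher in females lie mostly close to 0 with 7 genes beyond -2.

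Single birds were told apart by few genes. In 35 genes, 0.255% of those tested, every male lay above every female; all 35 were called, with differences of 0.76 to 1.01 and a median mean count of 547. In 2 genes, 0.0146% of those tested, every female lay above every male. Of the 13724 genes tested, a randomly drawn male exceeded a randomly drawn female in at least 90% of pairs for 317. He did so in at most 10% of pairs for 10 genes. All 317 were among the 555 genes called higher in males, and all 10 among the 149 called higher in females. For most of the 555 genes the full ranges of the sexes thus overlapped.

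The gene with the largest difference toward females was ENSTGUG00000024281. Its normalised counts were 0 to 16.5 with a median of 0 in the 46 males, and 19.3 to 104.95 with a median of 48.1 in the 40 females. The sexes did not overlap, and 31 of the males had no read of it. Males averaged 1.31 ± 3.33 and females 50.97 ± 19.0 (SD). The fitted difference was -4.98 ± 0.21 (SE, limma adjusted p = 5.3e-35); since males are near 0 its size depends on the pseudocount, and it was -2.64 with 8 and -7.38 with 0.1 in place of 1. ENSTGUG00000026388 had counts of 0 to 19.3 with a median of 4.86 in males, and 10.2 to 320 with a median of 99.7 in females. The lowest females reached into the males' range, between 10.2 and 19.3 counts. Its difference was -4.21 ± 0.22 (SE, limma adjusted p = 2e-29), and -3.06 with a pseudocount of 8.

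The other 5 genes beyond 4-fold were read weakly in females, with means of 7.59 to 21.4 normalised counts, and means of 0.0549 to 4.33 in males. Between 17 and 44 of the 46 males had no read of each gene, and every one of the 40 females had at least 1 read. The highest male had 8.17 counts of ENSTGUG00000024636, 1.00 of ENSTGUG00000027677, 2.81 of ENSTGUG00000026898 and 1.52 of ENSTGUG00000020963. These genes passed the filter of a value of 10 in at least 9 libraries through females alone. That many females had reads of them follows in part from this choice. In 4 of the 5 the ranges of the sexes overlapped, most widely in ENSTGUG00000004184, where 1 male reached 60.4 counts against a median of 16.0 and a highest value of 79.8 in females. This gene was singled out after its values were seen. The differences of the 5 genes ran from -3.71 to -2.53. At such low counts these sizes depend on the pseudocount, and so does which genes lie beyond 4-fold. In the other birds of the series these 7 genes showed the same direction. All 7 were called higher in females when the birds of day 6 were fitted alone, where 0.138% of genes tested were called so. At day 90 all 7 were called, where 9.68% of genes tested were called so. All 7 were also called without 3 day 90 libraries of females that lay far from their groups, where the share was 1.38%.

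The named genes toward males differed less and overlapped more. ENSTGUG00000001089 had counts of 140 to 944 with a median of 415 in males, and 49.8 to 504 with a median of 147.6 in females. The upper females reached into the males' range. The highest was a MeHg female of day 35 with 504 counts, against 241 in the next of that group. In control birds alone the sexes did not overlap at day 35 or at day 18, and in MeHg birds they overlapped at both ages. How many of all genes do not overlap in groups of this size was not counted. Males averaged 420 ± 197 and females 162.1 ± 87.8 (SD), a difference of 1.41 ± 0.14 (SE, limma adjusted p = 1.5e-14). It was called under all 19 alternatives, at 1.17 to 1.51. With day 6 fitted alone it was not called (0.57, limma adjusted p = 0.341). With day 90 fitted alone it was called (1.02, limma adjusted p = 5.9e-05). The ratio of male to female means was 1.48 in MeHg birds and 4.37 in control birds at day 35, and 3.37 in MeHg birds and 2.201 in control birds at day 18. The difference between treatments in its log2 sex difference, MeHg minus control over both ages, was -0.17 with a 95% interval of -0.71 to 0.37. It missed the threshold (limma adjusted p = 0.941). This contrast averages ages at which the ratios of MeHg and control birds differed in opposite directions. It therefore cannot decide whether treatments differed at either age, which was not tested.

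ENSTGUG00000023400 was weakly read and variable. Its counts were 0 to 102.8 with a median of 28.5 in males, and 0 to 48.01 with a median of 13.4 in females. The sexes overlapped over the whole range of the females, and 1 male and 9 females had no read. The difference was 1.501 ± 0.36 (SE, limma adjusted p = 0.00215). The call was lost with edgeR, which gave 0.94 (adjusted p = 0.0629), with DESeq2 (adjusted p = 0.0541), within MeHg birds (0.99, adjusted p = 0.707) and within control birds (1.83, adjusted p = 0.0718). It was also lost in cohort 1 alone (1.01, limma adjusted p = 0.631) and in the libraries with a labelled RNA integrity number (RIN) without RIN in the fit (1.31, limma adjusted p = 0.0817). With day 6 fitted alone the gene was not called (0.77, limma adjusted p = 0.999). With day 90 fitted alone it was called (1.08, limma adjusted p = 0.0301).

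**Figure D2:**
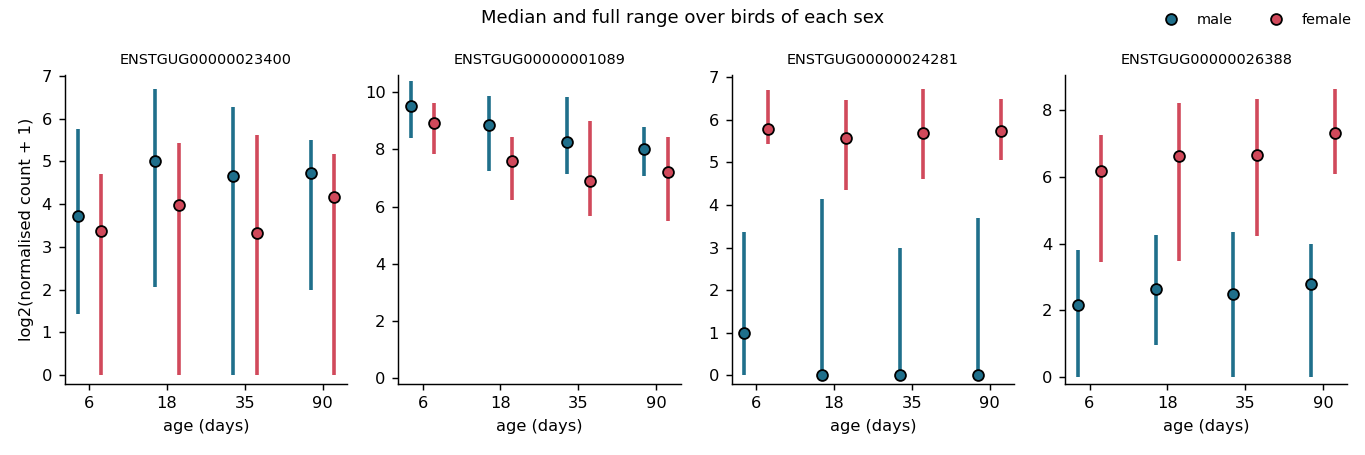
Log2(normalised count + 1) of 4 genes at day 6, 18, 35 and 90; points are medians and bars the full range over the birds of 1 sex, males (blue) left of females (red). ENSTGUG00000024281 and ENSTGUG00000026388 lie far lower in males than in females at every age, while ENSTGUG00000023400 and ENSTGUG00000001089 have higher medians in males with overlapping ranges.

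The ages were then read apart. In 1 fit, 548 genes (3.99%) were higher in males and 286 (2.08%) higher in females at day 35. At day 18, 662 genes were called, 507 (3.69%) higher in males and the rest (1.13%) higher in females. At day 35 the named genes toward males were ENSTGUG00000023400, at 1.71 with an adjusted p of 0.0466 that 9 of 14 alternatives raised past 0.05, and ENSTGUG00000029669. The second of these had a wide range: its counts were 9.15 to 314 with a median of 100 in day 35 males, and 3.34 to 178 with a median of 30.9 in day 35 females. The ranges overlapped, and the difference was 1.52 ± 0.33 (SE, limma adjusted p = 0.000573). At day 18 the named genes were ENSTGUG00000006489 and ENSTGUG00000017531. ENSTGUG00000006489 had counts of 52.2 to 413 with a median of 121.7 in day 18 males, and 11.5 to 117.7 with a median of 49.5 in day 18 females, a difference of 1.66 ± 0.26 (SE, limma adjusted p = 5.4e-07). ENSTGUG00000017531 had 40.2 to 129.1 with a median of 78.95 in males, and 13.9 to 67.5 with a median of 29.8 in females, a difference of 1.43 ± 0.15 (SE, limma adjusted p = 2.71e-12). In both genes the median of the males lay above the highest female, and the lower males lay among the females. At day 35 ENSTGUG00000017531 was also called (0.77, limma adjusted p = 0.000505), and ENSTGUG00000006489 was not (0.76, limma adjusted p = 0.0974). At day 18 ENSTGUG00000029669 (0.88) and ENSTGUG00000023400 (1.34) missed the threshold (limma adjusted p = 0.0884 and 0.148). The change between the ages was called in none of these genes toward males, with a lowest limma adjusted p of 0.121. Toward females the 2 named genes at each age were again ENSTGUG00000024281 and ENSTGUG00000026388.

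Fitted alone, so that no bird or estimate was shared, day 35 gave 623 genes, 487 higher in males (3.55%) and the rest higher in females (0.991%). Day 18 gave 609 genes, 492 higher in males (3.58%) and the rest higher in females (0.853%). The lists of genes higher in males overlapped: 421 genes were called at both ages, 86.4% of the day 35 list and 85.6% of the day 18 list. The lists of genes higher in females hardly did: 17 genes were called at both, 12.5% of the day 35 list and 14.5% of the day 18 list. Of the day 35 list toward females, 46.3% had the same sign at day 18, against 57.9% of all genes tested; of the day 18 list, 41.03% had it at day 35, against 53.7%. The exception was the large differences. All 7 genes at least 4-fold higher in females at day 35 were called at day 18, and 7 of the 8 such genes of day 18 were called at day 35. Between 0.25 and 0.5 on the log2 scale, 5 of 79 genes of day 35 and 4 of 57 genes of day 18 were called at the other age.

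**Figure D3:**
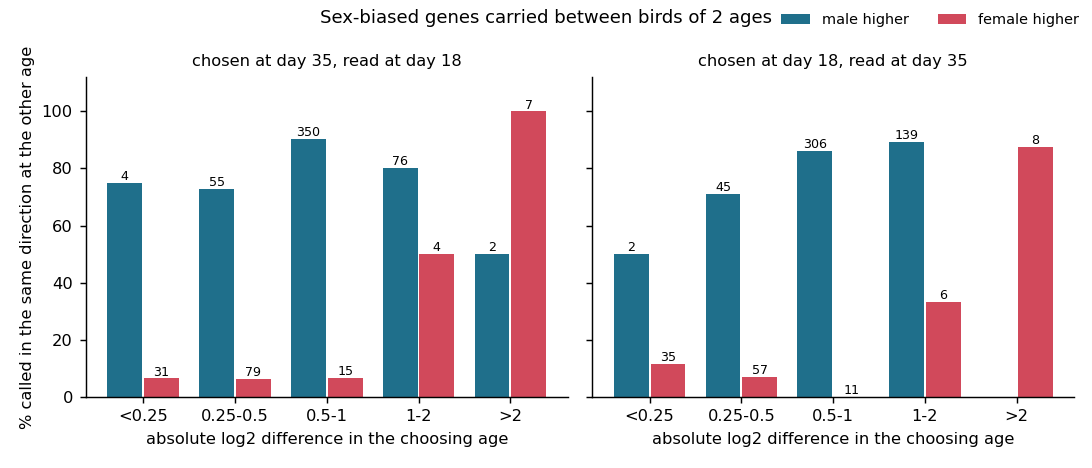
Share of genes called in 1 age that were also called in the same direction at the other, in percent, by the size of the difference in the choosing age (log2 scale); blue bars are genes higher in males, red bars genes higher in females, and the number above each bar counts its genes. From 0.5 up to 2, genes higher in males were called again in at least 80.3% of cases, while genes higher in females were called again often only beyond 2.

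The comparison was repeated within treatments and cohorts. In MeHg birds alone, 473 genes (3.45%) were higher in males and 45 (0.328%) higher in females, and in control birds 473 (3.45%) were higher in males and 72 (0.525%) higher in females. The genes higher in males shared 433 members, 91.5% of either list. Those higher in females shared 16, 35.6% of the MeHg list and 22.2% of the control list. Of the MeHg list toward females, 88.9% had the same sign in control birds, against 55.7% of all genes tested. Of the control list toward females, 84.7% had it in MeHg birds, against 57.9%. In cohort 2, 502 genes (3.66%) were higher in males and 67 (0.488%) higher in females, and in cohort 1, 444 (3.24%) were higher in males and 52 (0.379%) higher in females. They shared 426 genes higher in males, 84.9% of the cohort 2 list and 95.9% of the cohort 1 list, and 16 higher in females. Of the cohort 2 list toward females, 86.6% had the same sign in cohort 1, against 58.9% of all genes tested. Of the cohort 1 list toward females, 88.5% had it in cohort 2, against 56.8%. The test of the difference itself called 0 genes (0%) for treatment. There limma gave 873 genes (6.36%) at an unadjusted p under 0.05 and a lowest adjusted p of 0.612. The treatment contrast averages both ages, so it cannot decide whether treatments differed in opposite directions at the ages. The test called 0 genes (0%) for cohort, with 752 genes (5.48%) at an unadjusted p under 0.05 and a lowest adjusted p of 0.621. With edgeR, DESeq2 and voom both counts were also 0. Among the 555 genes higher in males, the median difference between treatments in the log2 sex difference was -0.04, against 0.00 over all genes tested.

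Birds outside the juvenile ages gave a second reading of the juvenile lists. Of the 555 genes higher in juvenile males, 544 had the same sign at day 6 and 320 were called there, where a fit of 16 males and 16 females called 321 genes higher in males (2.34%) and 19 higher in females (0.138%). At day 90, 508 were called, where 1450 genes (10.6%) were higher in males and 1328 (9.68%) higher in females. Without the 3 day 90 libraries that lay farthest from their groups, all of females, 573 genes (4.18%) were higher in males and 189 (1.38%) higher in females, and 480 of the 555 genes were called. Of the 149 genes higher in juvenile females, 17 were called at day 6 and 30 at day 90 without those 3 libraries. None of either list was called in the opposite direction at day 6 or day 90, with or without the 3 libraries.

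Each juvenile was also scored on genes chosen in other birds. Genes were chosen in the birds of day 6 and day 90, fitted together, which called 827 genes higher in males (6.03%) and 859 higher in females (6.26%). In the juvenile comparison, 63.4% of these 827 genes and 7.1% of these 859 genes were called in the same direction. The choosing fit held the 3 day 90 females that lay far from their groups. Of the genes it called, 662 were higher in males by at least 0.5 on the log2 scale and 10 were at least 4-fold higher in females. In each juvenile, the score was the median over a list of the bird's log2 deviation from the midpoint of the juvenile sexes. For the 662 genes, scores were 0.19 to 0.60 with a median of 0.36 in males, and -0.58 to -0.03 with a median of -0.34 in females. For the 10 genes, they were -1.99 to -0.51 in males and 0.50 to 2.65 in females. All 46 males and all 40 females thus lay on the side of their labelled sex on both lists, and the sexes did not overlap. The midpoint was set from the labelled sexes of these same juveniles, so the place of the dividing line follows from that choice. With lists chosen at day 90 alone without those 3 libraries, 521 genes toward males gave 0.22 to 0.62 in males and -0.53 to -0.16 in females, and 10 genes toward females gave -2.31 to -0.63 in males and 0.48 to 2.65 in females. By group, the difference of the medians for the 662 genes, males minus females, was 0.64 in MeHg birds and 0.68 in control birds at day 35, and 0.73 in both at day 18.

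**Figure D4:**
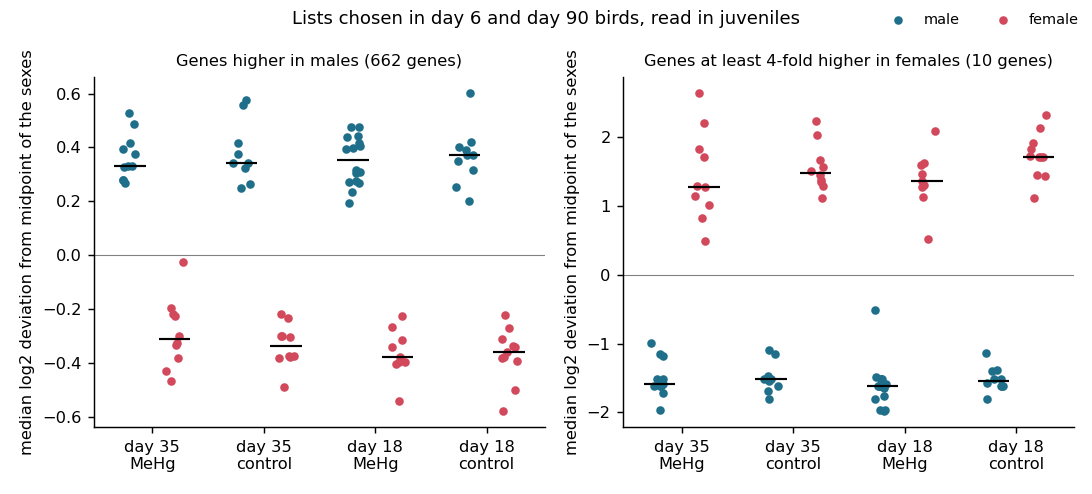
Score of each juvenile by age and treatment, males (blue) left of females (red), for 662 genes higher in males and 10 genes at least 4-fold higher in females, both lists chosen in birds of day 6 and day 90; the y axis is the median log2 deviation from the midpoint of the sexes, and black lines are group medians. Males lie above 0 and females below it on the left, and the reverse on the right, in all 4 groups.

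In the main fit a small set of genes was called for a sex difference that differed between the ages. The test of day 35 against day 18 called 88 genes (0.641%), 40 with a higher and 48 with a lower male minus female difference at day 35. At day 35 the sex difference itself was called in 60 of them, at day 18 in 23, at both ages in 7 and at neither in 12. Over all 13724 genes tested, 834 were called at day 35 and 662 at day 18 in the same fit. The 88 were chosen on the difference of these same estimates, so calls at a single age follow in part from that choice. The estimates had opposite signs at the ages in 84, which genes chosen for a change between ages also tend to have. Of the 88, 5 were among the 704 of 13724 genes called for sex over both ages. They were 4 toward males and 1 toward females, where 4.04% and 1.09% of all genes tested were called so. The median size of the change was 0.50 on the log2 scale. At an unadjusted p under 0.05 there were 2334 genes, 17.0% of those tested. The count of 88 depended on the fit: with limma it was 0 in the 66 libraries with a RIN, where 1845 genes had an unadjusted p under 0.05 and 1634 with RIN in the fit, 1 without cohort and plate, and 471 with DESeq2. Without the 3 juvenile libraries farthest from their groups, 1 of a MeHg male and 2 of control females of day 18, it was 391. At day 35 the RIN averaged 8.94 ± 0.40 in 20 males and 8.71 ± 0.32 in 14 females (SD; permutation p = 0.095, adjusted over 8 library measures 0.615), and its part in these calls was not tested beyond the fit with RIN.

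The named genes show the form of these changes. ENSTGUG00000022756 had counts of 104.4 to 704 with a median of 374 in males and 167.6 to 596 with a median of 284 in females at day 35. At day 18 it had 81.4 to 434 with a median of 199 in males and 158.5 to 773 with a median of 327 in females. Males were lower than females at day 18 (limma adjusted p = 0.000663), and at day 35 the difference of 0.31 missed the threshold (limma adjusted p = 0.31). The ranges overlapped broadly, and the change was 1.03 ± 0.24 (SE, limma adjusted p = 0.0368). ENSTGUG00000001543 had 19.5 to 265 with a median of 53.4 in males and 49.9 to 523 with a median of 126.2 in females at day 35. At day 18 it had 33.3 to 545 with a median of 105.4 in males and 32.7 to 505 with a median of 78.3 in females. Here males were lower at day 35 (limma adjusted p = 0.00132), and at day 18 the difference of 0.63 missed the threshold (limma adjusted p = 0.279). The change was -1.99 ± 0.43 (SE, limma adjusted p = 0.0351). ENSTGUG00000024884 changed by 0.94 ± 0.24 (adjusted p = 0.0401), with medians of 30.04 in males and 25.5 in females at day 35, and 13.7 in males and 18.6 in females at day 18. ENSTGUG00000010970 changed by -1.55 ± 0.39 (adjusted p = 0.0401), with medians of 16.6 in males and 45.1 in females at day 35, and 33.1 in males and 21.96 in females at day 18. Of these 2 genes, ENSTGUG00000024884 was called at neither age, and ENSTGUG00000010970 at day 35 alone (limma adjusted p = 0.004). All 4 genes lost their call without cohort and plate in the fit of the same libraries (limma adjusted p = 0.0618 to 0.129). ENSTGUG00000024884 and ENSTGUG00000010970 lost it with extraction batch in place of plate (limma adjusted p = 0.122 and 0.0565). They also lost it with no filter (limma adjusted p = 0.0505 in each). ENSTGUG00000022756 and ENSTGUG00000001543 kept it in these fits. All 4 genes also lost their call in the libraries with a RIN, which are fewer. With RIN in the fit the changes there were 0.98, 0.65, -2.53 and -1.42 for ENSTGUG00000022756, ENSTGUG00000024884, ENSTGUG00000001543 and ENSTGUG00000010970.

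**Figure D5:**
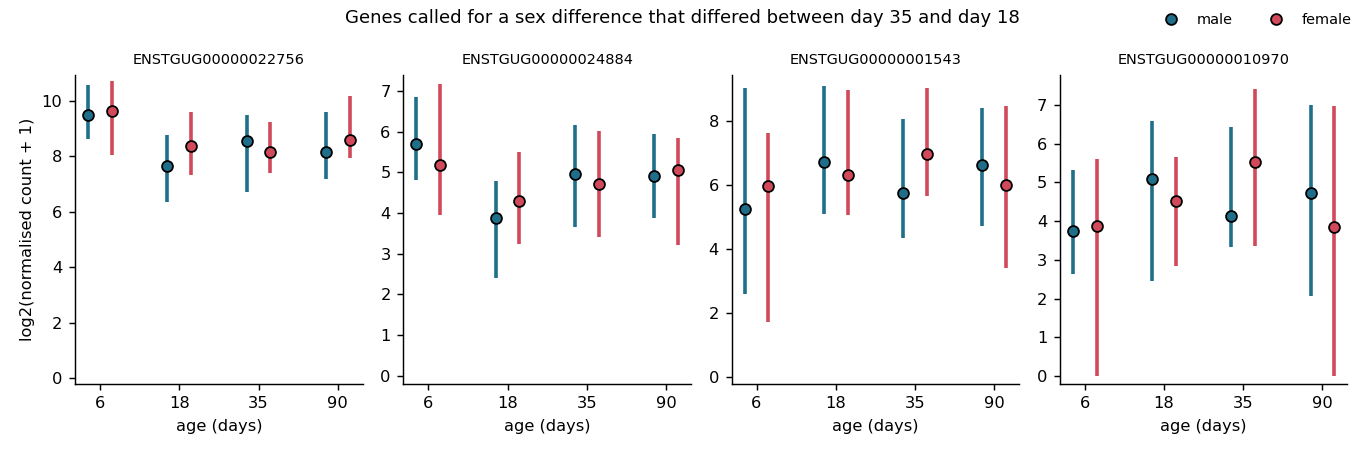
Log2(normalised count + 1) of 4 genes called for a sex difference that differed between day 35 and day 18, at day 6, 18, 35 and 90; points are medians and bars the full range over the birds of 1 sex, males (blue) left of females (red). The median of males and that of females change places between day 18 and day 35 in each gene, while the ranges overlap throughout.

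Against the other ages, the juvenile sex difference was compared by an interaction. Against day 6 it differed in 0 genes (0%) with limma, where 617 genes (4.5%) had an unadjusted p under 0.05. The lowest adjusted p with limma was 0.0580, and edgeR called 5 genes. Against day 90 it differed in 1854 genes (13.5%), 859 with a higher and 995 with a lower male minus female difference in juveniles. Without the 3 farthest day 90 libraries, 1 of MeHg females and 2 of control females, limma called 0 genes, with 1744 at an unadjusted p under 0.05. The named gene with the largest rise of the difference in juveniles, ENSTGUG00000013081, had medians of 14.3 in males and 19.1 in females among juveniles, and 15.1 in males and 66.3 in females at day 90, where the highest female reached 2574. In the list of 555 genes higher in males, the median of this interaction was 0.02, against -0.02 over all genes tested.

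The spread between birds was also compared. The absolute deviation from the group fit differed between the sexes in 0 genes (0%) with limma. There 481 genes (3.5%) had an unadjusted p under 0.05, and the lowest adjusted p was 0.276. Library measures of the sexes lay close together: totals averaged 7853300 in males and 7674950 in females at day 35, and 8508890 in males and 8097790 in females at day 18. Genes with a read averaged 15978 in males and 15953 in females at day 35, and 15792 in males and 15775 in females at day 18. The 3 most abundant genes held 16.9% ± 5.15 of normalised counts in males and 14.8% ± 4.08 in females at day 35, and 17.4% ± 4.33 in males and 17.2% ± 5.78 in females at day 18 (SD; 26 males and 20 females at day 18, 20 of each at day 35). In permutation tests with 100000 resamples no library measure passed an adjusted p of 0.05, and the lowest of the 8 was 0.615.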

How the data were processed

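Messenger RNA of whole bone marrow was isolated with RNAzol RT and oligo(dT) beads and, per the labels' protocols, made into libraries with a NEBNext Ultra II kit. Per the submitters' processing notes, featureCounts, Subread, DESeq2 1.30.1 and R 4.0.2 were used; strand setting, build and annotation were not given in the sources used here, and overlapping genes could have shared reads. What the authors deposited is a normalised signal: the reads of a gene over a size factor of the library. Taking each library's step as 1 read, 100% of values came out whole within a relative tolerance of 1e-06, and edgeR 4.0.16 on these reads called 696 genes for sex. The design had assumed raw counts; since values are normalised, limma 3.58.1 (R 4.3.3, trend and robust) on log2(value + 1) became the main test. Of 17292 genes, 13724 reached a value of 10 in at least 9 juvenile libraries and were tested. Covariates were age by treatment group, cohort and plate, from the labels; 3 juveniles of unknown sex were not analysed here. Within groups the lowest chi-square per gene of 437 library pairs was 12.5, so none was counted as a duplicate. The reference table matched 0 of 17292 identifiers, so the gene and cell type lists could not be used and the deposited file pairs no identifier with a symbol. Named genes were the 2 with the largest change each way among those called with a mean value of at least 20. Members, lists and rules were chosen with earlier results of these data known. The fit was tested on simulated counts. These held no effect of plate, cohort or title code, so that test cannot show how the fit handles them. Alternatives covered pseudocount, filter, TMM, edgeR, DESeq2 1.42.0, voom, covariates, title codes and libraries left out. Permutation tests and figures used Python with scipy and matplotlib.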

Additional observations from a re-analysis of the deposited data

Results flagged for a closer look

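In the main fit the sex difference differed between day 35 and day 18 in 88 genes. Among them were ENSTGUG00000022756 (1.03), ENSTGUG00000024884 (0.94), ENSTGUG00000001543 (-1.99) and ENSTGUG00000010970 (-1.55), each as day 35 minus day 18 on the log2 scale. All 4 lost their call without cohort and plate and in the libraries with a RIN. Between juveniles and day 90 the sex difference differed in 1854 genes. Among them were ENSTGUG00000013081 (2.46), ENSTGUG00000011396 (1.59), ENSTGUG00000005087 (-2.31) and ENSTGUG00000012726 (-2.12), each as juveniles minus day 90. All 4 of the day 90 genes lost their call without the 3 farthest day 90 libraries, where the estimates were 1.69, 1.99, -1.67 and -1.64 in the same order.

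In 9 of 40 tests of a named gene in a group of up to 10 birds, 1 bird lay far from the next on the count scale. The cut-offs used hold for normally distributed values and counts can be skewed, so no chance rate is set beside this number. Toward the high end, a MeHg female of day 35 had 504 counts of ENSTGUG00000001089, and the next 241. A control male of day 35 had 6.89 of ENSTGUG00000024281, and the next 3.16; a control male of day 35 had 11.9 of ENSTGUG00000026388, and the next 5.62. A control male of day 18 had 13.9 of ENSTGUG00000024281, and the next 5.00. A control female of day 35 had 63.5 of ENSTGUG00000024884, and the next 37.6. A MeHg female of day 35 had 134.7 of ENSTGUG00000010970, and the next 66.8. A MeHg female of day 18 had 773 of ENSTGUG00000022756, and the next 420; a MeHg female of day 18 had 505 of ENSTGUG00000001543, and the next 211. Toward the low end, a control male of day 18 had 81.4 of ENSTGUG00000022756, and the next 145.6.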

How the results depend on the processing

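The count of genes called for sex over both ages was 704 and stayed between 496 (cohort 1 alone) and 785 (no filter) under 19 alternatives. The part toward males was 444 to 611, against 555, and the part toward females moved more: against 149 it was 45 in MeHg birds alone, 61 with title code as a fixed effect and 190 with DESeq2. At day 18 it was 662 (494 to 767 under the alternatives, with 451 to 541 toward males and 43 to 227 toward females), and at day 35 it was 834 (622 to 1229, with 483 to 687 toward males and up to 542 toward females, with voom). No named gene changed direction. The sex difference by age gave 88 genes, and 27 with no filter, 471 with DESeq2, 493 with voom, 1 without cohort and plate, 192 with extraction batch in place of plate, 203 with title code as a random effect and 391 without the 3 farthest juvenile libraries. It was 0 in the libraries with a RIN, with and without RIN in the fit; the cause was not tested. Against day 6, 0 genes became 2 with TMM scaling, 5 with edgeR, 1 without cohort and plate and 2 with title code as a random effect. Against day 90, 1854 became 991 without cohort and plate and 0 without the 3 farthest day 90 libraries. The spread between birds gave 2 genes with a pseudocount of 8, against 0. Leaving out the 3 farthest juvenile libraries, leaving out the 3 day 90 libraries in the comparison with day 6 and in choosing the lists for scores, and the fit on libraries with a RIN but without it as a term were added after seeing the data. No paired analysis was possible because the labels number no replicates, other than within title codes. Birds sharing a title code correlated at 0.137 within genes, and with the code as a fixed effect, which compares birds within the 15 codes that held both sexes, the count was 570. Genes with few reads had a larger median SE, 0.19 under a mean count of 20 against 0.05 between 500 and 2500. The part of depth in the called differences was not tested.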
